A study of Mus musculus with 20 samples.

Results

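The mean of 2 heterozygous mutant genotypes, Idh1 R132H and Idh2 R140Q, each with few called differences from WT, was set against WT in a single contrast of chromatin accessibility. The members were the 4 libraries of Idh1 R132H and the 4 of Idh2 R140Q, 8 in all, with 4 WT controls, so that 12 of the 20 libraries in the series entered. Libraries were taken by genotype label, and the 2 genotypes were paired with earlier results of these data known. The question was whether a weak change in accessibility was common to both genotypes, away from chromosomes 1 and 7, where the targeted genes Idh1 and Idh2 lie. The assay was ATAC-seq: a transposase cuts and tags DNA where chromatin is open. The cells were LSK cells (lineage-negative, c-Kit-positive, Sca-1-positive), sorted from the bone marrow of C57BL/6J mice aged 3 to 4 months. Each library was a pool of 2 animals. Idh1 R132H mice carried 1 Idh1 LSL-R132H allele with Vav-Cre, and Idh2 R140Q mice 1 Idh2 LSL-R140Q allele with Vav-Cre. A further pair of genotypes served only to place the result: Idh2 R172K (1 LSL-R172K allele with Vav-Cre) and Tet2 knockout (Tet2-/-, for which the label names no Cre). WT mice were +/+ with Vav-Cre, so that Cre, expressed in blood cells, was present in the mild mutants and their controls alike.

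IDH1, in the cytosol, and IDH2, in mitochondria, normally convert isocitrate to 2-oxoglutarate. The mutant enzymes instead make 2-hydroxyglutarate, which can inhibit enzymes that use 2-oxoglutarate, among them the TET proteins that oxidize 5-methylcytosine and the JmjC histone demethylases. Such mutations occur in human acute myeloid leukemia, and DNA methylation at CG pairs is a mark often studied with them.

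Promoters were among the peaks that moved in both directions when the replicate number entered the fit, and 3 are shown to make their base composition visible. They are the promoters with the lowest p in that fit (1 lowered, 2 raised) whose peak overlapped a RefSeq window by at least 150 bases. Each window ran from 250 bases before to 50 after a gene start, and the 3 were chosen after their values were seen. Unc5cl and Med13l, described below, had promoter peaks of lower p than Col6a5 and Gnb1 in turn and are not among the 3. Capitals mark CG pairs, and each window is written 5′ to 3′ on the gene's strand (RefSeq, GRCm38.p6).
Col6a5 (lowered; chr9:105960594-105960893, minus strand): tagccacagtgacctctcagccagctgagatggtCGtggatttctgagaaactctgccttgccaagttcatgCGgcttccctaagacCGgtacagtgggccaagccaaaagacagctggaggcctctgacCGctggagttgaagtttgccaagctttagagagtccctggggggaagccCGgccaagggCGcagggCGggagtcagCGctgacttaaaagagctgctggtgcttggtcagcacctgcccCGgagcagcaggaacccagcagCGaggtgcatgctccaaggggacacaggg
Zzz3 (raised; chr3:152395753-152396052, plus strand): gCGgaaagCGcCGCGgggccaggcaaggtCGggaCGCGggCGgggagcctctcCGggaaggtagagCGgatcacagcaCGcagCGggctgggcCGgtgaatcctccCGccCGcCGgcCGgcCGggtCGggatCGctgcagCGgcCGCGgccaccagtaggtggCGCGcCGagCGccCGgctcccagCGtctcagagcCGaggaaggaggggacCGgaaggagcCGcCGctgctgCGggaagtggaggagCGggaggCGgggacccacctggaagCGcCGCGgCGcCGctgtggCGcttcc
Gnb1 (raised; chr4:155491111-155491410, plus strand): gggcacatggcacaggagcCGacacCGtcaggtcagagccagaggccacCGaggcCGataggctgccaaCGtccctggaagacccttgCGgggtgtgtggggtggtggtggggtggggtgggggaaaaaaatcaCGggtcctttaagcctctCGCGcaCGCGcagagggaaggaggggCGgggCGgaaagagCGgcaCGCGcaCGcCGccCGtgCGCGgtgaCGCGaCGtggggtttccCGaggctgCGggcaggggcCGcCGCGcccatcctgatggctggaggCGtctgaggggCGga
The Col6a5 window held 10 CG pairs, the Gnb1 window 31 and the Zzz3 window 42. Over 21263 protein-coding windows the median was 13, and 56.8% held at least as many as Col6a5, 14% as many as Gnb1 and 3.89% as many as Zzz3. RefSeq windows matched too few of the promoter peaks (6975 of 13339) for a comparison of whole sets.

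The 12 libraries held 14.51 to 27.89 M counts in peaks (M for 1e6). Idh1 R132H spanned 17.44 to 27.89 M, Idh2 R140Q spanned 16.76 to 27.74 M and WT spanned 14.51 to 26 M. The gate markers were accessible: the strongest peak of Kit, the stem cell factor receptor, had a median of 66.1 CPM (counts per 1e6 counts in peaks, scaled) in the 8 mutant libraries and 64.8 CPM in WT, and that of Mecom, a stem cell transcription factor, had 83.0 and 82.3 CPM. The strongest peak of Ly6a, which encodes Sca-1, was weak (3.24 CPM in mutants, 3.21 CPM in WT), and Cd3e, a T cell receptor complex gene, was not at 0 (3.53 CPM in mutants, 3.30 CPM in WT), so accessibility alone does not check the sort. In each of these 3 genotypes replicates 2 and 4 were high at the Xist peaks (27.2 to 30.1 CPM) and replicates 1 and 3 low (3.87 to 4.89 CPM). The sex of the animals is not in the labels. The library labelled Idh2 R140Q replicate 3 lay with WT at many of the peaks described below, and several counts are therefore also given without it.

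Outside chromosomes 1 and 7 no peak was called when both genotypes were averaged without regard to replicate number, while 179 were called with that number as a block, as described further on. Of 123908 tested peaks 3 passed an adjusted p of 0.05 in edgeR's quasi-likelihood test (0.00242%, of which 0.00161% raised and 0.000807% lowered), 1 on chromosome 1 and 2 on chromosome 7. Of the 108092 peaks elsewhere 0 passed (lowest adjusted p = 0.0703), while 5392 (4.99%) had an unadjusted p under 0.05, against 5.04% of all tested peaks, and DESeq2 called 2. Leaving out Idh2 R140Q replicate 3 gave 28 calls there (1 raised, 27 lowered), and leaving out Idh2 R140Q replicate 2 gave 13, all lowered. Each of the other 10 libraries, left out in turn, gave 0 or 1.

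The estimates were tight enough to bound most peaks. The median standard error of the pooled log2 fold change was 0.141 and the median half-width of its 95% interval 0.285. The interval lay wholly within a 1.5-fold change either way for 76.2% of peaks, and within a 1.25-fold change for 38.3%. These intervals are those of the fit without the block.

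The 2 called peaks on chromosome 7 were not common to both genotypes, as the plot of their accessibility by library shows. An intergenic peak at chr7:63802730-63803300 had Otud7a, a deubiquitinase gene, as its nearest gene, 36783 bp away. It had 10.5, 11.1, 11.1 and 13.2 CPM in Idh2 R140Q, 0.319, 0.399, 0.158 and 0.362 CPM in Idh1 R132H, and 0.379, 0.368, 0.526 and 0.205 CPM in WT. Of the 12 libraries only those of Idh2 R140Q were high. The peak was also high in Idh2 R172K, with 7.37 ± 1.49 CPM (SD, n = 4). Its pooled log2 fold change was 2.38 ± 0.28 (SE; adjusted p = 1.39e-05), from 4.99 for Idh2 R140Q and -0.23 for Idh1 R132H.

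The lowered call was of the same kind. An intronic peak of Akap13, an A-kinase anchoring protein gene, at chr7:75699643-75700344 had 6.70, 6.30, 7.29 and 7.11 CPM in Idh2 R140Q, 12.8, 10.1, 12.8 and 12 CPM in Idh1 R132H, and 13, 13.1, 11.2 and 13.4 CPM in WT (pooled log2 fold change -0.49 ± 0.08, SE; adjusted p = 0.00319). The Idh2 R140Q libraries lay below all Idh1 R132H and WT libraries, and the Idh1 R132H ones overlapped WT. Idh2 R172K had 6.17 ± 0.459 CPM (SD, n = 4), so the low level was not particular to Idh2 R140Q. Idh1 R132H and Idh2 R140Q differed at both peaks in the direct contrast (adjusted p = 6.45e-23 for Otud7a and 8.02e-07 for Akap13). That contrast called 51 peaks (0.0412%): 25 on chromosome 1, 18 on chromosome 7 and 8 elsewhere. With the replicate number as a block it called 404 (0.331%): 81 on chromosome 1, 50 on chromosome 7 and 273 elsewhere. The Otud7a peak lies 16.3 Mb and the Akap13 peak 4.4 Mb from Idh2. Alone against WT, Idh1 R132H had 34 calls (0.0274%), 24 of them on chromosome 1, and Idh2 R140Q had 19 (0.0153%), 16 of them on chromosome 7. Leaving out single libraries gave 18 to 50 calls for Idh1 R132H, with 18, 20 and 22 without its own replicates 1, 3 and 4 and 19 without WT replicate 1. For Idh2 R140Q it gave 12 to 94, with 94 and 33 without its own replicates 2 and 3 and 12 without WT replicate 1. With the replicate number as a block the calls were 334 for Idh1 R132H and 111 for Idh2 R140Q. Both of these comparisons share the WT libraries. Treating the 8 mutant libraries as one group, which puts the difference between the genotypes into the error, called 0 peaks on either chromosome. The Akap13 call was lost without WT replicate 1 (adjusted p = 0.0608) and without WT replicate 4 (adjusted p = 0.0508). The Otud7a peak was called whichever library was left out.

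**Figure D1:**
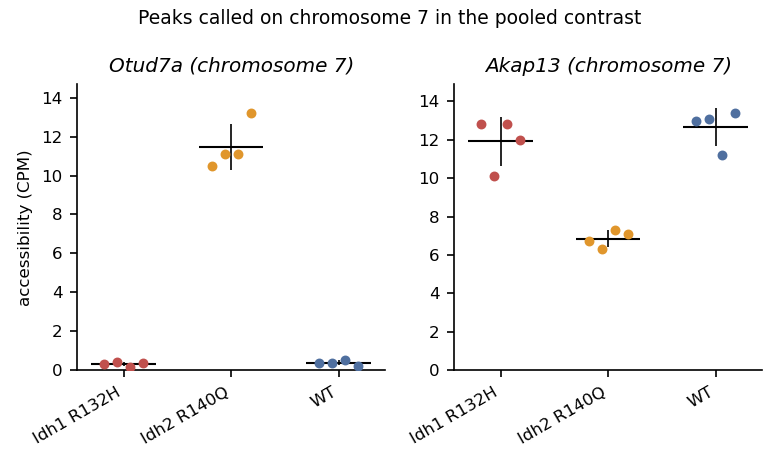
Accessibility in CPM of the 2 peaks called on chromosome 7 in the pooled contrast, with 1 point per library (4 each of Idh1 R132H, Idh2 R140Q and WT), a line at the mean and a bar of 1 SD. In both panels Idh2 R140Q stands apart and Idh1 R132H lies near WT.

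Among peaks outside chromosomes 1 and 7, those with the lowest p were mostly lower in the mutants, though none was called without the block. The first 5 in each direction are plotted by library. An intergenic peak near Kbtbd11, which encodes a BTB and kelch domain protein, at chr8:15036314-15037077 had 5.28, 4.84, 4.37 and 4.53 CPM in Idh1 R132H, 5.54, 4.52, 7.09 and 3.93 CPM in Idh2 R140Q, and 7.40, 6.71, 8.15 and 7.59 CPM in WT. Idh2 R140Q replicate 3 (7.09 CPM) lay among the WT values and the other 7 mutant libraries lay below all 4. The pooled log2 fold change was -0.56 ± 0.11 (SE; 95% interval -0.78 to -0.35; adjusted p = 0.0703). An intronic peak of Ccdc88c, a Dishevelled-binding protein gene, at chr12:100924801-100925465 had 2.30, 2.33, 2.13 and 2.63 CPM in Idh1 R132H, 2.15, 2.85, 3.39 and 2.27 CPM in Idh2 R140Q, and 3.72, 3.89, 3.75 and 4.18 CPM in WT. All 8 mutant libraries were below all 4 WT libraries there (-0.65 ± 0.12 on the log2 scale, SE; adjusted p = 0.0703).

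An exonic peak of Afap1, an actin filament-associated protein gene, at chr5:35993460-35993884 averaged 1.29 ± 0.287 CPM in the 8 mutant libraries and 2.32 ± 0.229 CPM in WT (SD, n = 8 and n = 4; log2 fold change -0.85 ± 0.16, SE; adjusted p = 0.0703), again without overlap. The intronic peak of Epb41l3, a membrane skeleton protein gene, at chr17:69288144-69288488 averaged 1.12 ± 0.397 CPM in mutants and 2.15 ± 0.278 CPM in WT. Its pooled log2 fold change of -0.96 ± 0.18 (SE; adjusted p = 0.0703) joined -1.31 for Idh1 R132H, which passed on its own (adjusted p = 0.00498), and -0.62 for Idh2 R140Q, which did not (adjusted p = 0.783). The direct difference between the genotypes was not called (adjusted p = 0.636). Bach1, a heme-responsive transcriptional repressor, had an intronic peak at chr16:87725952-87726631 with 2.27 to 2.92 CPM in Idh1 R132H, 1.66 to 4.64 CPM in Idh2 R140Q and 3.95 to 5.61 CPM in WT (-0.85 ± 0.16, SE; adjusted p = 0.0793). The value of 4.64 CPM is again Idh2 R140Q replicate 3, and the other 7 mutant libraries lay below WT.

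In the raised direction the adjusted p values of the first 5 ran from 0.210 to 0.307. Med13l, a Mediator subunit gene, had a promoter peak at chr5:118559725-118560499 with 28.6, 29.4, 26.1 and 32.0 CPM in Idh1 R132H, 26.7, 25.9, 28.3 and 22.4 CPM in Idh2 R140Q, and 21.3, 23.1, 21.9 and 22.3 CPM in WT (log2 fold change 0.31 ± 0.07, SE; adjusted p = 0.210). All but Idh2 R140Q replicate 4 lay above WT. The exonic peak of Snx20, a sorting nexin gene, at chr8:88627145-88628188 averaged 3.20 ± 0.493 CPM in mutants and 1.99 ± 0.408 CPM in WT (SD, n = 8 and n = 4; 0.68 ± 0.15, SE; adjusted p = 0.210). Idh2 R172K had 12.4 ± 1.05 CPM there (SD, n = 4). An intergenic peak at chr15:69575584-69576049 had Khdrbs3, an RNA-binding protein gene, as its nearest gene, 474022 bp away. It had 2.09 to 3.4 CPM in the mutant libraries, all above the 1.39 to 1.77 CPM of WT (0.65 ± 0.15, SE; adjusted p = 0.270). The promoter peak of Slc12a2, a sodium, potassium and chloride cotransporter gene (0.31 ± 0.07, SE), and a peak near Kansl2, a gene of a histone acetyltransferase complex, at chr15:98514066-98514779 (0.47 ± 0.12, SE), had adjusted p values of 0.278 and 0.307. Over all tested peaks the 8 mutant libraries lay below all 4 WT libraries at 338 (0.273%) and above them at 204 (0.165%). Outside chromosomes 1 and 7 these numbers were 291 (0.269%) and 176 (0.163%).

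**Figure D2:**
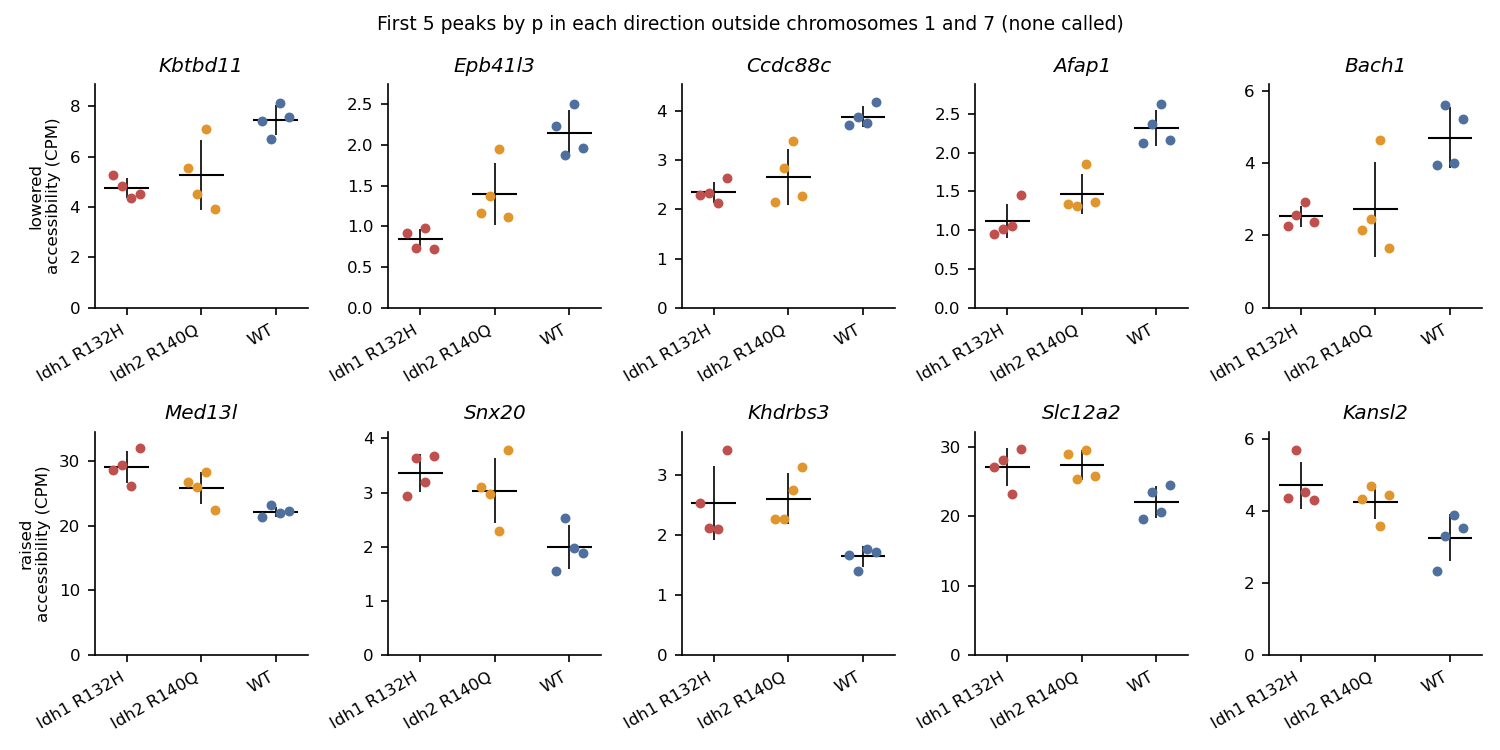
Accessibility in CPM of the 5 lowered (top) and 5 raised (bottom) peaks with the lowest p outside chromosomes 1 and 7, with 1 point per library, a line at the mean and a bar of 1 SD. No peak was called. Idh2 R140Q replicate 3, the third point of its group, lies near WT at Kbtbd11, Epb41l3 and Bach1.

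Libraries with the same number deviated together in the mutants and in WT, and with the replicate number as a block 217 of 122068 peaks were called (0.178%), 35 of them raised (0.0287%) and 182 lowered (0.149%). Of these 179 lay outside chromosomes 1 and 7, 27 raised and 152 lowered (0.0253% and 0.143% of the peaks tested there), with 23 on chromosome 1 and 15 on chromosome 7. All 10 peaks just named were called in that fit, with adjusted p values from 0.000560 for Epb41l3 to 0.0416 for Slc12a2. The number of calls rested on single numbers and on the test. Leaving out all 3 libraries of replicate 1 gave 8 calls outside chromosomes 1 and 7, of replicate 2 168, of replicate 3 226 and of replicate 4 72. With DESeq2 and the same block it was 5, and with cyclic loess scaling 125 (10 raised, 115 lowered). Of the 152 lowered peaks 88 passed in Idh1 R132H against WT with the block and 34 in Idh2 R140Q. Of the 27 raised ones 21 and 1 did, against 256 and 73 of all peaks there. All 152 and all 27 had the same sign in both genotypes, whose mean chose them. The fold change was larger in Idh1 R132H at 99 and at 21. The direct difference with the block was called at 1 peak of each set.

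The lowered direction led in most fits but not in all. Without the block and outside chromosomes 1 and 7, 3338 of 108092 peaks (3.09%) were lower in the mutants at an unadjusted p under 0.05. There 2054 (1.90%) were higher, against 3.12% lower and 1.92% higher among all tested peaks. At p under 0.001, 193 of all tested peaks were lower (0.156%) and 27 higher (0.0218%). Outside chromosomes 1 and 7 these numbers were 157 and 19. Without Idh2 R140Q replicate 3 there were 3700 lower and 2136 higher at p under 0.05, and 254 lower and 28 higher at p under 0.001. Under cyclic loess scaling 138 were lower and 25 higher at p under 0.001, and at p under 0.05 library size scaling raised the share of lower peaks to 74.3%, against 61.9%. Within the libraries high at Xist, 135 were lower and 15 higher at p under 0.001. Within those low at Xist, 62 were lower and 226 higher, and the calls there were 34 raised and 1 lowered. With the block and without replicate 4 the calls were 39 raised and 33 lowered. The part of the 2 library sets in these counts was not tested.

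**Figure D3:**
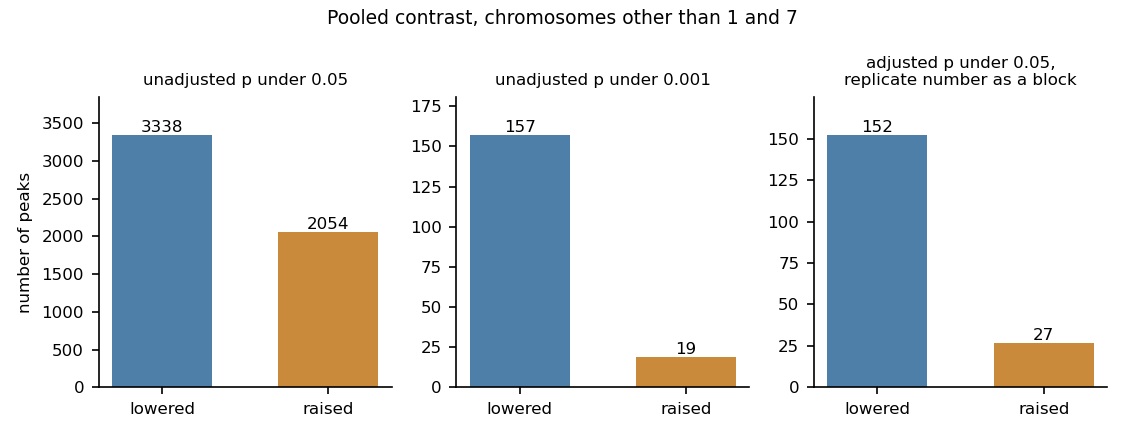
Numbers of peaks lower and higher in the mean of both mild Idh genotypes than in WT, outside chromosomes 1 and 7, at unadjusted p under 0.05, at unadjusted p under 0.001, and called with the replicate number as a block. The bars are 3338 and 2054, 157 and 19, and 152 and 27.

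The peaks called with the block differed in class by direction. Of the 152 lowered ones 77 were intronic (50.7%, against 42.0% of all tested peaks), 45 intergenic (29.6%, against 36.3%), 11 exonic, 10 at transcription ends and 9 at promoters (5.92%, against 12.3%), with a median log2 fold change of -0.56 and a median of 3.01 CPM in mutants and 4.44 CPM in WT, against 2.59 and 2.63 CPM over all tested peaks. Of the 27 raised ones, which were stronger, 19 were promoters (70.4%, against 12.3% of all tested peaks), with a median log2 fold change of 0.21 and a median of 38.3 CPM in mutants and 33.5 CPM in WT. These fold changes are those that chose the peaks. Without the block the median standard error was 0.073 at promoters, 0.151 at intronic and 0.154 at intergenic peaks. Smaller changes can thus pass at promoters, and the part of this in the shares was not tested. At unadjusted p under 0.001 without the block, promoters were 36.8% of the 19 raised peaks and 7.01% of the 157 lowered ones. The first 5 in each direction by p in the blocked fit were taken after the values were seen. Unc5cl, a death domain protein gene, had a promoter peak at chr17:48462114-48462614 with 1.70, 1.31, 1.69 and 0.906 CPM in Idh1 R132H, 1.91, 1.61, 4.04 and 0.908 CPM in Idh2 R140Q, and 3.98, 3.81, 4.40 and 3.20 CPM in WT (blocked log2 fold change -1.21 ± 0.14, SE; adjusted p = 1.08e-05, against 0.170 without the block). Idh2 R140Q replicate 3 (4.04 CPM) was the one mutant library in the WT range.

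Zfp64, a zinc finger gene, shows what the block removes. The intergenic peak named after it, 25448 bp from the gene at chr2:168980673-168981398, had 7.98, 9.96, 6.86 and 11.2 CPM in Idh1 R132H, 7.09, 9.69, 8.34 and 11.3 CPM in Idh2 R140Q, and 11.1, 15.8, 9.92 and 14.2 CPM in WT. Replicates 2 and 4 were high in each genotype, and the groups overlapped. The blocked log2 fold change was -0.50 ± 0.07 (SE; adjusted p = 3.96e-05), against -0.52 ± 0.20 (SE; adjusted p = 0.905) without the block. Slc37a3, of a sugar phosphate transporter family, had a peak at chr6:39334125-39334672 with 7.47 to 10.9 CPM in mutants, all below the 11.0 to 13.2 CPM of WT (blocked adjusted p = 0.000445). Upf1, the helicase of nonsense-mediated decay, had an intronic peak at chr8:70341880-70342571 with 3.07 ± 0.906 CPM in mutants and 4.82 ± 0.293 CPM in WT (SD, n = 8 and n = 4; blocked log2 fold change -0.69 ± 0.11, SE; adjusted p = 0.000616).

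On the raised side the promoter peak of Zzz3, whose protein belongs to a histone acetyltransferase complex, at chr3:152395439-152396912 had 106, 107, 107 and 122 CPM in Idh1 R132H, 101, 102, 102 and 99.3 CPM in Idh2 R140Q, and 89.7, 95.8, 85.4 and 99.1 CPM in WT. All 8 lay above WT, the lowest of them close to the highest WT library (blocked log2 fold change 0.19 ± 0.04, SE; adjusted p = 0.00435). The promoter peak of Gnb1, a G protein beta subunit gene, at chr4:155491018-155491872 had 22.9 ± 2.37 CPM in mutants and 18.9 ± 1.65 CPM in WT (SD, n = 8 and n = 4; 0.27 ± 0.05, SE; adjusted p = 0.0117). A peak of Epb41, the red cell membrane skeleton gene, at chr4:132048451-132049493 had 33.3 ± 2.65 and 28.7 ± 2.51 CPM in the same order (0.22 ± 0.05, SE; adjusted p = 0.0191). With the block, Idh1 R132H and Idh2 R140Q had log2 fold changes of 0.25 and 0.13 at Zzz3. They had 0.39 and 0.15 at Gnb1, and 0.21 and 0.22 at Epb41. Idh2 R140Q did not pass on its own at these peaks (blocked adjusted p = 0.232, 0.414 and 0.066). The lowered promoter printed above, that of Col6a5, a collagen VI chain gene, had 0.227 to 0.591 CPM in Idh1 R132H, 0.594 to 0.988 CPM in Idh2 R140Q and 0.941 to 1.51 CPM in WT (blocked log2 fold change -1.0 ± 0.23, SE; adjusted p = 0.0352).

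Median shifts over whole classes of peaks were small. The values of the 2 genotypes share the WT libraries. Outside chromosomes 1 and 7 the median pooled log2 fold change was 0.028 at promoters (0.034 for Idh1 R132H, 0.023 for Idh2 R140Q), with 66.1% of 13339 promoter peaks above 0, against -0.010 at intronic and -0.010 at intergenic peaks and -0.001 over all. At transcription ends it was -0.002 for Idh1 R132H and 0.001 for Idh2 R140Q. Peak strength moved with it: the median was -0.047 in the weakest 25% of peaks, -0.029 and -0.009 in the next 2 groups of that size and 0.025 in the strongest 25%. Promoter peaks took 41.91 ± 0.70% of the counts in mutants and 41.33 ± 0.60% in WT (SD, n = 8 and n = 4), a difference of 0.574 percentage points (exact permutation test, 2-sided, p = 0.190). Permuted within replicate numbers, the exact p was 0.0494. The difference was 0.587 points within the libraries low at Xist (exact permutation p = 0.267) and 0.560 points within the high ones (exact permutation p = 0.400), where groups of this size cannot reach 0.05.

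The fold changes against WT were also read along a difference between 2 genotype means that held none of these 12 libraries. Its filter, scaling and estimate of spread came from the fit of all 20 libraries. The values of the 2 genotypes are given side by side, and both use the same 4 WT libraries. Idh2 R172K and Tet2 knockout differed at 44.3% of tested peaks (24.1% lower and 20.1% higher in Idh2 R172K), and outside chromosomes 1 and 7 Idh2 R172K was lower at 26027 and higher at 21821. At the 26027 lower peaks the median mild Idh log2 fold change was -0.056 (-0.057 for Idh1 R132H, -0.053 for Idh2 R140Q), and 66.2% of peaks were below 0, against 50.3% of all. At the 21821 higher peaks it was 0.033 (0.034 and 0.033), and 65.0% were above 0. Both signs held in promoter, intronic, intergenic, exonic and transcription end peaks taken apart, under cyclic loess scaling of all classes together (-0.045 and 0.016), and within the libraries low at Xist (-0.051 and 0.029) and high at Xist (-0.063 and 0.036). At the higher promoter peaks alone the median was 0.038, against 0.028 at all promoter peaks, and 0.003 under cyclic loess scaling. The 21821 higher peaks were stronger than most. Their mean log2 level was 2.59 to 2.661 in the 12 libraries, against 1.949 to 1.993 over all peaks. The strongest 25% of all peaks had a similar median of 0.025, with 66.0% above 0. How far peak strength accounts for the shift at the higher peaks was not tested.

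The shift was mostly larger where the difference was larger, as the plot by bins shows, with the last bin and, for Idh2 R140Q, the second (-0.139, against -0.144 in the third) out of that order. Where Idh2 R172K was lower than Tet2 knockout by more than 3 on the log2 scale (169 peaks), the median was -0.305 in Idh1 R132H and -0.212 in Idh2 R140Q. Between 1 and 1.5 lower (6586 peaks) it was -0.084 and -0.090, and between 1.5 and 2 higher (546 peaks) 0.086 and 0.086. In the bin of the largest gains (204 peaks) it was 0.030 and 0.022. These shifts are small against a median change of -3.24 between Idh2 R172K and Tet2 knockout in the first bin.

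**Figure D4:**
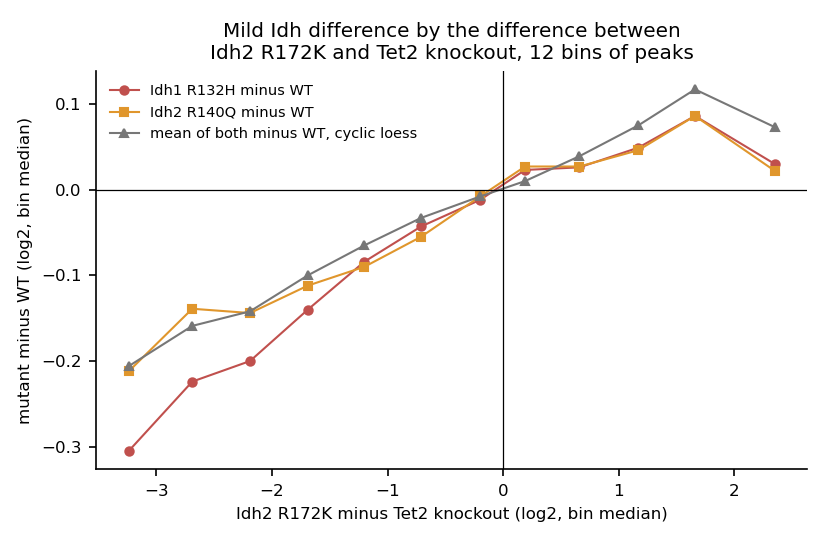
Median log2 fold change against WT of Idh1 R132H, of Idh2 R140Q and of their mean after cyclic loess scaling, for 12 bins of peaks outside chromosomes 1 and 7 ordered by the log2 difference of Idh2 R172K minus Tet2 knockout. The lines run below 0 on the left and above 0 on the right, from -0.305 and -0.212 to 0.086 and 0.086 and then 0.030 and 0.022 in the last bin; both genotypes share the WT libraries.

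At the 1609 peaks more than 4-fold lower in Idh2 R172K than in Tet2 knockout, single libraries can be compared. The mean log2 level (CPM plus 0.5) was 1.433, 1.428, 1.458 and 1.421 in Idh1 R132H, 1.461, 1.474, 1.621 and 1.384 in Idh2 R140Q, and 1.584, 1.620, 1.650 and 1.624 in WT. The mutant libraries lay below all WT libraries except Idh2 R140Q replicate 3 (1.621), which lay among them. The 4 Idh2 R172K libraries had -0.095 to -0.008 and the 4 Tet2 knockout libraries 1.457 to 1.465, levels that the choice of peaks used. The Tet2 knockout libraries thus lay below all 4 WT libraries too, within the range of the mild mutants. The median pooled log2 fold change at these peaks was -0.177, or -0.207 without Idh2 R140Q replicate 3. That library was singled out for lying with WT, so a larger shift without it was to be foreseen. Over all 26027 lower peaks, however, it lay below all 4 WT libraries. Its mean log2 level relative to all peaks was -0.127 there, and that of Idh2 R140Q replicate 2 -0.128, against -0.118 to -0.095 in WT. Of the 1609 peaks 24.7% were lower in the mutants at an unadjusted p under 0.05 and 0.124% higher, against 3.09% and 1.90% of all peaks, and 0 were called. Of the 152 peaks lowered with the block 135 (88.8%) were among the 26027, which are 24.1% of all peaks tested outside chromosomes 1 and 7. They made up 0.519% of the 26027, against 0.143% lowered among all. Of the 27 raised 10 (37.0%) were among the 21821, which are 20.2% of all, and made up 0.0458% of them, against 0.0253% raised among all, and 1 was among the lower ones.

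**Figure D5:**
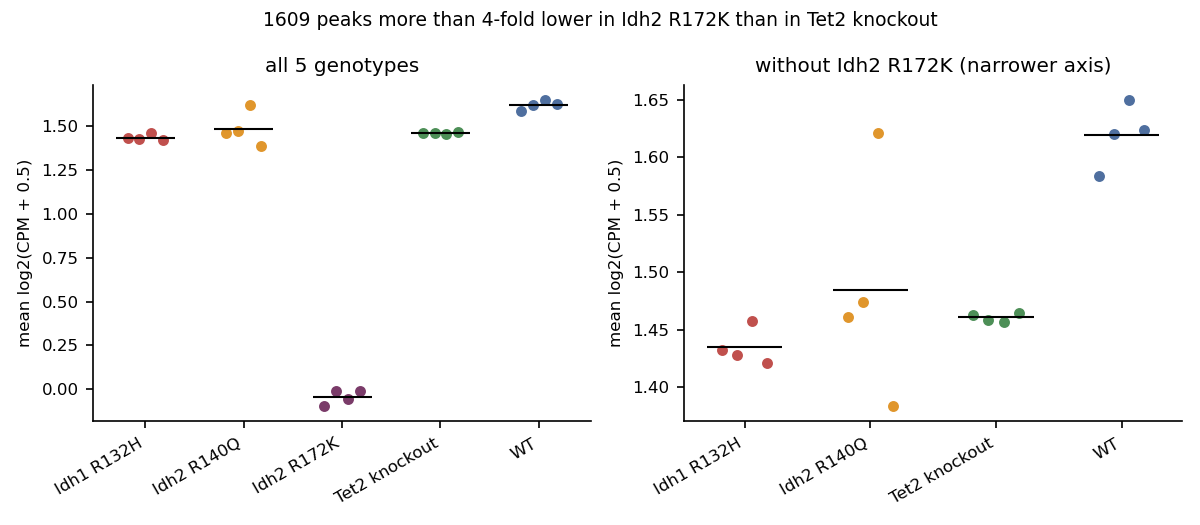
Mean log2(CPM + 0.5) over the 1609 peaks outside chromosomes 1 and 7 that were more than 4-fold lower in Idh2 R172K than in Tet2 knockout, with 1 point per library and a line at the group mean; the right panel leaves out Idh2 R172K and has a narrower axis. Idh1 R132H libraries lie at 1.421 to 1.458, Idh2 R140Q at 1.384 to 1.621 and WT at 1.584 to 1.650.

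Genes of blood lineages and of 2-hydroxyglutarate biology had no called peak in the pooled contrast. Over 17 lists, from 605 peaks of stem cell genes to 28 of heme synthesis genes, 0 were called and the list medians ran from -0.034 (mast cell and basophil) to 0.015 (interferon response), against -0.001 over all peaks. Of 305 peaks of 2-oxoglutarate dioxygenase genes 11 were higher and 12 lower at an unadjusted p under 0.05 (7.54%, against 5.04% of all tested peaks). Of 109 peaks of isocitrate and 2-hydroxyglutarate metabolism genes 3 and 2 were (4.59%), and of 73 peaks of DNA methylation writer and reader genes 4 and 2 (8.22%). With the block 5 of the 2518 peaks of all lists were called (0.199%, against 0.178% of all tested peaks), each lower and each in another list, a share near that of all peaks. An intronic peak of Pax5, the B cell commitment factor, at chr4:44624659-44625285 had 1.74, 2.45, 1.89 and 2.17 CPM in Idh1 R132H, 1.55, 2.08, 2.45 and 1.46 CPM in Idh2 R140Q, and 3.38, 3.07, 2.96 and 2.75 CPM in WT, with no overlap (blocked log2 fold change -0.65 ± 0.13, SE; adjusted p = 0.0145, against 0.170 without the block).

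The other 4 were 1 peak each of Hlf, a stem cell transcription factor (-0.53), Zfpm1, a cofactor of GATA factors (-0.43), Ifih1, an RNA sensor (-0.74), and Hif1an, an oxygen-dependent hydroxylase of the 2-oxoglutarate class (-0.43), with blocked adjusted p values of 0.0419, 0.0462, 0.0279 and 0.0274. Of the 7 fits with a block Hlf was called in 2, Zfpm1 and Ifih1 in 3, and Pax5 and Hif1an in 4, and over all 30 settings the log2 fold change of Hlf ran from -0.87 to -0.18. At the Ifih1 peak Idh2 R140Q replicate 3 (2.84 CPM) lay above all WT libraries (2.05 to 2.56 CPM), while the Idh1 R132H libraries had 0.854 to 1.49 CPM. Markers of cells outside the gate did not part the groups: summed CPM ran from 252 to 280 in mutants and 256 to 273 in WT for 8 B cell genes with peaks, from 708 to 764 and 715 to 745 for 12 T and NK cell genes, and from 752 to 791 and 740 to 784 for 12 stroma and endothelium genes. In bulk samples fewer cells of a type and less open DNA per cell cannot be told apart.

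The targeted genes showed no called peak in the pooled contrast. Idh1 had 2 peaks, Idh2 8, Tet2 30 and Vav1, whose regulatory DNA drives the Cre, 12, with 0 called in either fit (lowest adjusted p 0.983 without and 0.316 with the block, both at Tet2). The main Tet2 promoter peak at chr3:133544011-133545353 had 54.3 ± 3.52 CPM in mutants and 50 ± 4.03 CPM in WT (SD, n = 8 and n = 4; log2 fold change 0.12, 95% interval 0.00 to 0.23), and the Vav1 promoter peak 37.6 ± 1.42 and 37.8 ± 2.66 CPM. A base change in Idh1 or Idh2 need not alter accessibility, so these values do not check the genotype labels.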

How the data were processed

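The tools named in the submitters' processing notes are featureCounts, MACS2, SAMtools, Picard, BWA and Trim Galore, with build mm10. Their versions and settings, and any shift of reads to the transposase cut, are not stated there. The authors deposited whole-number counts for 125343 peaks of a single peak set shared by the 20 libraries, and an annotation with a class per peak. Coordinates follow that annotation, counted from 1. Columns naming Idh1 with the R140Q change were taken as Idh2 R140Q, the one genotype with that change. Peaks were named by the protein-coding RefSeq gene (GRCm38.p6) that held their centre, otherwise by the nearest, so a name marks a neighbour.

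Counts were tested with edgeR 4.0.16 (R 4.3.3; TMM scaling, expression filter by genotype, robust quasi-likelihood fit, 1 mean per genotype over 20 libraries). The filter left 123908 peaks. The pooled contrast is the mean of the log2 levels of Idh1 R132H and Idh2 R140Q minus WT. P-values are 2-sided, adjusted by Benjamini-Hochberg over all tested peaks, with a threshold of 0.05. CPM use TMM-scaled totals. The biological coefficient of variation was 7.73%. Replicates are separate pools of animals. The step was tested on simulated data.

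The labels number replicates 1 to 4 in each genotype. Deviations from the genotype means correlated at 0.102 to 0.275 between mutant and WT libraries of the same number (8 of 8 pairs over 0.1) and at -0.234 to 0.147 for other numbers. The pooled contrast was therefore also fitted with the number as a block. The main fit had no block, and the calls, intervals and medians given without mention of the block come from it. The block was fitted on the 12 libraries, with 122068 peaks after the filter. The labels do not say what a number stands for, and it moved with the level at Xist.

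Named peaks were the first 5 in each direction by p outside chromosomes 1 and 7, the called peaks (1 is not reported here), those of Idh1, Idh2, Tet2 and Vav1, and the lowest p of each of 17 gene lists. Members, lists and rules were chosen with earlier results of these data known. Alternatives were other scalings (RLE, cyclic loess, library size), filters, DESeq2 1.42.0, the replicate block, a term for the level at Xist and leaving out libraries.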

Additional observations from a re-analysis of the deposited data

Results flagged for a closer look

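At 3 named peaks the Idh1 R132H and Idh2 R140Q libraries differed by an adjusted p under 0.05 in the direct contrast, all on chromosomes 1 and 7. The difference of Idh1 R132H minus Idh2 R140Q on the log2 scale was -5.22 at Otud7a, 0.81 at Akap13 and -0.59 at Il1rl1, the interleukin 33 receptor gene and first peak of the mast cell list. At Il1rl1 on chromosome 1 the Idh1 R132H libraries had 4.71 to 5.74 CPM, the Idh2 R140Q libraries 7.49 to 8.26 CPM and WT 6.57 to 8.65 CPM.

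Single libraries stood away from the other 3 of their genotype in 9 of 129 groups of 4 examined, and chance alone marks about 1 group in 20. In Idh1 R132H they were replicate 4 at Zzz3 (122 CPM) and at Glud1, a glutamate dehydrogenase gene (114 CPM), and replicate 2 at Kansl2 (5.69 CPM). In Idh2 R140Q it was replicate 3 at Afap1 (1.85 CPM). In WT they were replicate 3 at Akap13 (11.2 CPM), replicate 2 at Slc37a3 (13.2 CPM) and at Tcf7, a T cell factor gene (2.95 CPM), and replicate 1 at Apobec3, a cytidine deaminase gene (0.986 CPM). At the peaks lower in Idh2 R172K than in Tet2 knockout, Idh1 R132H replicate 4 lay lowest of its genotype, with a mean log2 level -0.167 relative to all peaks, against -0.150 to -0.148 in the other 3.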

How the results depend on the processing

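Calls outside chromosomes 1 and 7 in the pooled contrast (0) were 2 with DESeq2, 6 with a term for the level at Xist, 6 within the libraries high at Xist, 35 within those low at Xist, 179 with the replicate block, 125 with the block and cyclic loess scaling, and 5 with the block in DESeq2. In the same order calls on chromosome 1 (1) were 2, 3, 0, 6, 23, 16 and 2, and 0 with the 8 mutant libraries as one group. Calls on chromosome 7 (2) were 4 within the libraries low at Xist, 15 with the block, 12 with the block and cyclic loess scaling, and 0 with one mutant group. Calls between Idh1 R132H and Idh2 R140Q (51) were 404 with the block, 458 with the block and cyclic loess scaling and 21 within the libraries high at Xist. For this contrast same-numbered libraries correlated at 0.072 to 0.289 (3 of 4 over 0.1), and those of other numbers at -0.277 to 0.134. The fit without the block was the main one there too, and the count depended on that choice.

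Leaving out single libraries gave 0 to 28 calls outside chromosomes 1 and 7, 0 to 6 on chromosome 1, 1 to 4 on chromosome 7 and 40 to 570 between the genotypes (570 without Idh2 R140Q replicate 2). With the block, calls with all libraries of number 1, 2, 3 or 4 left out were 8, 168, 226 and 72 outside chromosomes 1 and 7, 3, 19, 27 and 11 on chromosome 1, 2, 11, 14 and 11 on chromosome 7, and 122, 2148, 205 and 84 between the genotypes. The promoter share difference of 0.574 points ran from 0.336 to 0.743 and reached p = 0.0494 in the exact permutation within replicate numbers.

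The median at peaks lower in Idh2 R172K than in Tet2 knockout (-0.056) was -0.177 at those more than 4-fold lower, -0.041 at promoters, -0.045 under cyclic loess and -0.075 under library size scaling, and -0.059 to -0.052 without Idh2 R140Q replicate 3 or any 1 WT library. That at higher peaks (0.033) was 0.016 and 0.013 under the same 2 scalings, and 0.029 to 0.036 without the same libraries. At the 202 peaks more than 4-fold higher it was 0.047 and had no stable sign: -0.037, -0.076, 0.182 and 0.049 without WT replicate 1, 2, 3 or 4, and -0.139 and 0.194 within the libraries low and high at Xist. None of the 36 named peaks other than those of Idh1, Idh2, Tet2 and Vav1 changed sign in any of the up to 30 settings that gave a value. Those 36 were picked by low p in these libraries, and the settings reuse most of the libraries, so stable signs were likely beforehand. Of 51 peaks of Idh1, Idh2, Tet2 and Vav1 with a blocked value 3 changed sign with the block, all at values of 0.06 or less on the log2 scale. The cause of these differences was not tested. Several settings were chosen after seeing the data: the block with cyclic loess, with DESeq2 and without single numbers, and the 4-fold and class splits. For the medians by Idh2 R172K minus Tet2 knockout, so were the scalings, the Xist sets, the block and the left-out libraries. Depth and 12 libraries gave single peaks a median 95% half-width of 0.285 on the log2 scale without the block.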
